A study of Mus musculus with 15 samples.

Results

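The transforming growth factor beta (TGF-beta) ligands, receptors and binding proteins were followed across mouse liver tumors. They were 10 genes, chosen by symbol: the ligands Tgfb1, Tgfb2 and Tgfb3, the receptors Tgfbr1, Tgfbr2 and Tgfbr3, the latent binding proteins Ltbp1, Ltbp2 and Ltbp3, and Tgfbi, a secreted protein named for its induction by the pathway. They carried 15 probes on an array that names 24336 gene symbols. The study profiled whole tumor tissue on 15 Agilent 1-color arrays to compare liver carcinoma with and without p53. The p53f/f mice, with both Trp53 alleles floxed and intact, gave 5 hepatocellular carcinomas (HCC) from 4 mice, because mouse 3717 gave 2 tumors. The p53LKO mice, in which Trp53 was deleted in the liver, gave 5 HCC from 5 mice and 5 intrahepatic cholangiocarcinomas (ICC) from 5 mice, and 4 mice gave a tumor of each kind. All mice were C57/BL6J and received carbon tetrachloride (CCl4), a hepatotoxin given intraperitoneally in olive oil at 0.5 µl per g for 16 weeks from 6 weeks of age. There was no group without CCl4 and no non-tumor liver on these arrays. The injections were every 3 days in the sample labels and 2 per week in the methods. The study describes the HCC arrays as those of male mice, while the sex of the mice with ICC and the promoter that drove Cre are not given in the sources used here. The study gives several ages at collection without saying which applied to the mouse of each array. It reports that tumors formed significantly later in p53f/f mice. Age at collection may therefore differ with genotype and cannot be told apart from it here.

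TGF-beta is made as a precursor whose propeptide stays wrapped around the mature dimer. This latent complex is bound to a latent TGF-beta binding protein, which anchors it to fibrillin fibers of the matrix until integrins or proteases release the ligand. The ligand then assembles the type II receptor Tgfbr2 with the type I receptor Tgfbr1, which phosphorylates SMAD2 and SMAD3, and the co-receptor Tgfbr3 (betaglycan) presents ligand to them. In liver the pathway is known for restraining hepatocyte growth and for driving collagen production by stellate cells and fibroblasts. Ltbp2 binds fibrillin but, unlike its relatives, does not bind latent TGF-beta.

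The ligand probes show how far apart the related transcripts are at the sites measured. The Tgfb1 probe lies at chr7:26489877-26489936 on the plus strand of mm9, and the brighter of the Tgfb2 probes at chr1:188449333-188449392 on the minus strand. Both read the coding end that makes the mature ligand, and they are printed 5′ to 3′ with capitals at the bases they share when slid along each other without gaps.
Tgfb1: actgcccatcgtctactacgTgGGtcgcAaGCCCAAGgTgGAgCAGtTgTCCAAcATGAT
Tgfb2: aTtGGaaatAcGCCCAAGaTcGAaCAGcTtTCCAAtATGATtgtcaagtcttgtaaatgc
They overlapped over 41 bases and shared 28 of them (68.3%).

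A level is the log2 processed signal of a probe relative to the 75th percentile of its array, so 0 marks that percentile, and a gene with several probes is represented by the brightest. Levels of different probes cannot be ranked against each other. A probe was called when its limma p, adjusted by Benjamini-Hochberg over all tested probes, was under 0.05 and the change was over 2-fold. Errors are SD over 5 arrays, standard errors (SE) or 95% confidence intervals. In bulk tumor, fewer cells of a type and less RNA per cell cannot be told apart.

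Between 55.1% and 70.1% of probes were well above background on the p53f/f HCC arrays, 37.0% to 62.1% on the p53LKO HCC arrays and 42.5% to 47.0% on the p53LKO ICC arrays. The arrays sat on 2 slides, each with 2 rows: all p53f/f HCC were in row 1, all ICC in row 2, and the p53LKO HCC were split 3 to 2. The share of probes above background followed the row, at 55.1% to 70.1% on the 8 arrays of row 1 and 37.0% to 47.0% on the 7 of row 2. A probe not well above background in ICC is therefore not shown to be lower there. The only Trp53 probe read -1.27 to -0.68 in p53f/f HCC and -4.19 to -2.31 over the 10 p53LKO tumors. The array files place it on chromosome 17 of mm9, which is not the chromosome of Trp53, and do not say whether it reads the deleted part. It is therefore no check of the deletion. The summed level of the 14 measured hepatocyte markers was 11.74 to 12.59 in p53f/f HCC, 11.35 to 11.77 in p53LKO HCC and 9.80 to 11.14 in ICC. Of the 11 biliary markers tested, 4 were called higher and 3 lower in ICC against p53LKO HCC. Krt19 read 1.59 to 2.81 in ICC against -4.64 to -1.24 in p53LKO HCC, and Epcam was well above background on all 5 ICC arrays and on 0 of 5 p53LKO HCC arrays. Krt23, Slc4a2 and Prom1, from the same list, averaged 2.31, 3.76 and 3.83 in p53LKO HCC and 0.044, 2.41 and 2.57 in ICC. Muc1, also a biliary marker, was not well above background on any ICC array, though its mean of -3.92 there was above the -4.41 of p53LKO HCC. Each of the 10 genes was well above background on all 15 arrays by its representative probe and was tested in every comparison.

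**Figure D1:**
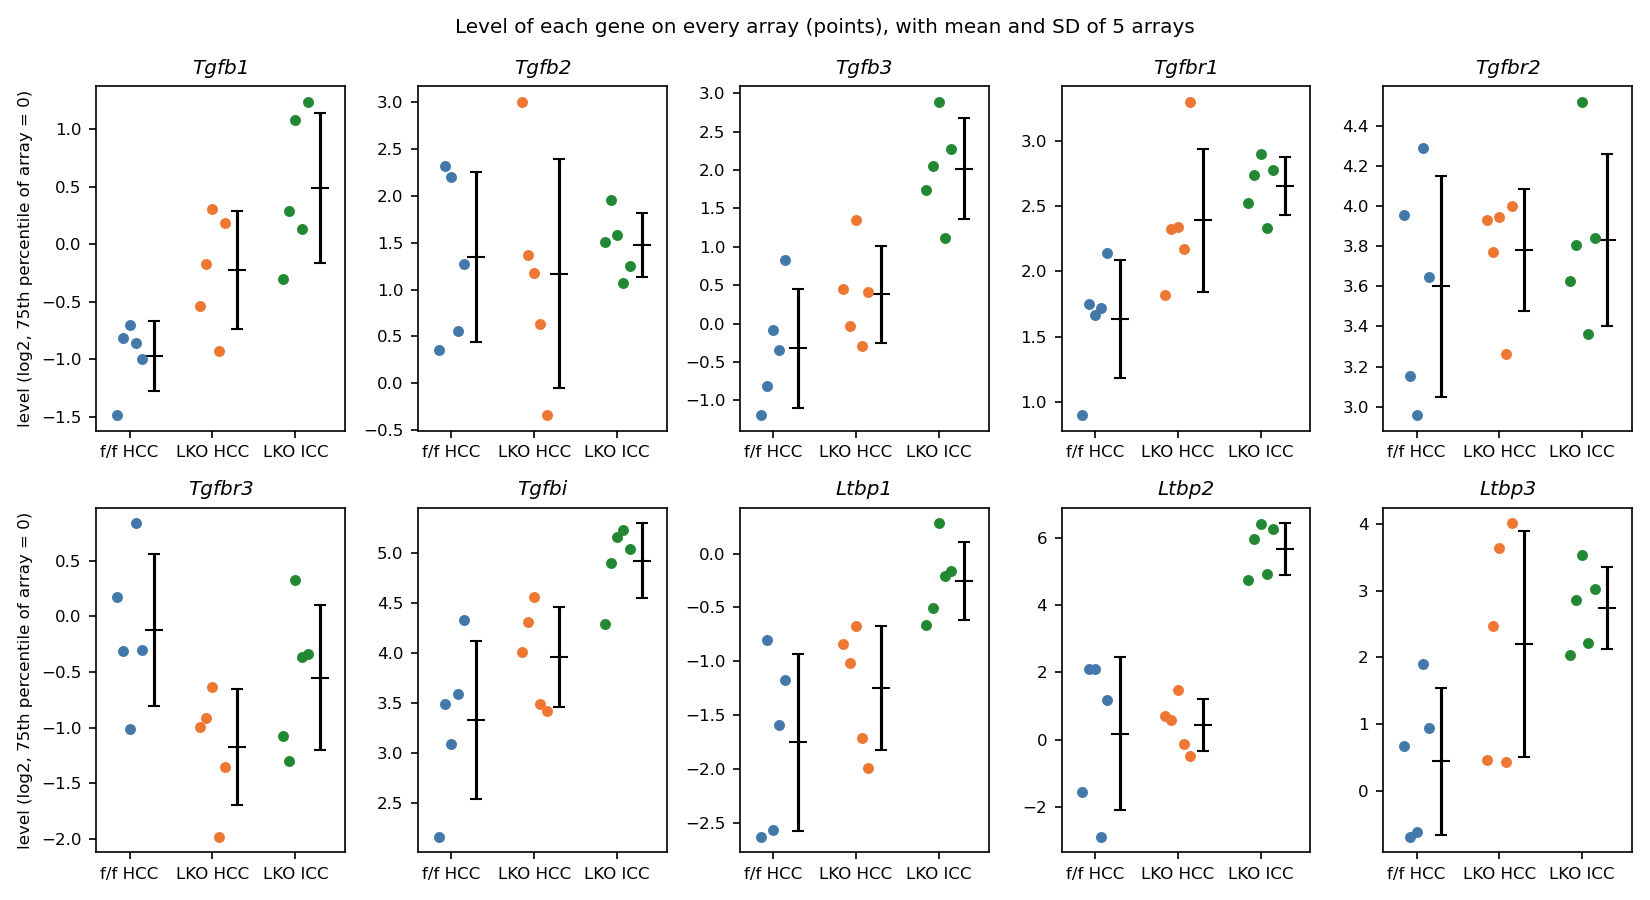
Level of each of the 10 genes (y axis, log2 relative to the 75th percentile of the array; each panel has its own scale) on every array of the 3 groups (x axis). Points are arrays, and the bar to their right is the mean with SD of 5 arrays. For Ltbp2 the 5 ICC points lie between 4.75 and 6.41, above all HCC points, while the Tgfbr2 points of the 3 groups overlap.

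The first comparison set HCC of p53LKO mice against HCC of p53f/f mice, where age at collection may differ with genotype. Of the 10 genes, 0 were called higher and 1, Tgfbr3, was called lower in p53LKO HCC. Over all 17847 genes tested, 5.19% were called higher and 10.8% lower. The median difference of the 10 genes was 0.57 on the log2 scale and that of all tested genes 0.06, with 8 of the 10 above 0. This split depended on the scaling. Scaled to the spike-in probes, which moved the median of all genes to 0.79, 5 of the 10 genes were called higher (Tgfb1, Tgfb3, Tgfbr1, Tgfbi and Ltbp3) and 0 lower, and the calls over all genes went from 927 higher and 1933 lower to 6087 and 796. Scaled to the 75th percentile of probes above background on all arrays they went to 430 and 2761.

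Tgfbr3, the co-receptor, read 0.17, -0.31, -1.01, 0.84 and -0.30 in p53f/f HCC and -0.99, -0.91, -0.63, -1.98 and -1.35 in p53LKO HCC. The ranges overlapped, since 2 of 5 p53LKO tumors lay below all p53f/f tumors. The mean was 2.07-fold lower (log2 difference -1.05, SE 0.35, limma adjusted p = 0.040; exact two-sided permutation p = 0.0317). The call held in 10 of 28 alternative analyses. It was lost when any of 7 tumors was left out, with limma adjusted p of 0.0812 without p53f/f mouse 3681, 0.0503 without 3715, 0.0838 and 0.0605 without tumor T1 or T2 of mouse 3717, 0.0577 without p53LKO mouse 3976, 0.0868 without 3733 and 0.0775 without 3975. With the slide as a block the limma adjusted p was 0.104, with the row of the slide as a block 0.0558, and with mouse 3717's tumors averaged 0.063. Within row 1 the difference was -1.20, on slide 1 -0.87 and on slide 2 -1.02.

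Tgfb1, the ligand most studied in liver fibrosis, read -1.49, -0.82, -0.70, -0.86 and -0.996 in p53f/f HCC. In p53LKO HCC it read -0.54, -0.17, 0.31, -0.93 and 0.19, and 4 of these 5 lay above every p53f/f tumor. The difference was 0.75 (SE 0.26, limma adjusted p = 0.0468), a 1.68-fold change that fell short of the fold limit. Within slides it was 0.62 and 0.85, and within row 1 it was 0.83.

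The remaining genes were not called. Tgfbr1, the type I receptor, was 1.69-fold higher in p53LKO HCC (log2 difference 0.76, 95% interval 0.10 to 1.41, limma adjusted p = 0.0734), with 4 of 5 tumors above all p53f/f tumors. Ltbp3, a partner of latent TGF-beta, had the widest spread in p53LKO HCC. It read 0.46, 2.47, 3.63, 0.43 and 4.01 there against 0.67, -0.69, -0.62, 1.90 and 0.94 in p53f/f HCC. Its difference of 1.76 had an interval of 0.04 to 3.48 (limma adjusted p = 0.106). The dimmer Ltbp3 probe differed by 0.96, with an interval of -0.22 to 2.14 (limma adjusted p = 0.189).

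Ltbp2 varied most among the p53f/f HCC, from -2.88 to 2.09. Those extremes lay on slide 1, and the tumors of mouse 3717 alone read -2.88 and 1.17, a gap of 4.05. No other member differed by more than 1.17 between these tumors of 1 mouse. The p53LKO HCC read -0.48 to 1.49, inside the p53f/f range, and the difference of 0.25 had an interval of -1.79 to 2.28. The type II receptor Tgfbr2 differed by 0.18, with an interval of -0.41 to 0.78. Tgfb2, Tgfb3, Tgfbi and Ltbp1 differed by -0.17, 0.70, 0.63 and 0.51, with limma adjusted p between 0.199 and 0.845.

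Tgfb2 in p53LKO HCC differed by position on the slide. The tumors of mice 3976 and 5283, in row 2, read 3.01 and 1.37, and the 3 in row 1 read 1.18, 0.63 and -0.34. The row means were 2.19 and 0.49, the largest gap in either direction among the 10 genes, and the part of the row in it was not tested. The dimmer Tgfb2 probe gave a difference of -0.52 between the genotypes (limma adjusted p = 0.397).

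The second comparison set ICC against HCC within p53LKO mice. Of the 10 genes, 2 were called higher and 0 lower in ICC: Ltbp2 and Tgfb3. Over all 16962 genes tested, 13.2% were called higher and 15.2% lower. All 10 differences were above 0, with a median of 0.67 on the log2 scale, beside -0.17 for all tested genes. At the adjusted p alone, without the fold limit, 4 genes passed, the further genes being Tgfbi and Ltbp1. Over all 16962 genes, 3144 were higher and 4930 lower at that threshold. Scaled to the 75th percentile of probes above background on all arrays, which moved the median of all genes to 0.19, 5 genes were called higher, with Tgfb1, Tgfbi and Ltbp1 added, and the calls over all genes went from 2234 higher and 2578 lower to 3244 and 1407. Scaled to the median of those probes they went to 2690 and 1825.

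Of the 10 genes Ltbp2 rose most. It read 0.70, 0.58, 1.49, -0.12 and -0.48 in p53LKO HCC and 4.75, 5.97, 6.41, 4.92 and 6.25 in ICC. The groups were separated by more than 3 log2 units. The mean was 37.5-fold higher (log2 difference 5.23, SE 0.43, limma adjusted p = 2.54e-05; exact two-sided permutation p = 0.00794, the smallest that 5 against 5 arrays allow). It was called in 27 of 27 alternative analyses, with differences of 4.97 to 5.60. The difference was 4.11 on slide 1, 5.59 on slide 2 and 5.02 within row 2.

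Since Ltbp2 carried the largest difference, its upstream sequence is shown. RefSeq's table for GRCm38.p6, which held 8 of the 10 genes, places the 250 bases before the start at chr12:84876492-84876741 on the minus strand. Capitals mark CAGAC, the short motif that SMAD3 and SMAD4 recognise, on either strand.
Ltbp2 upstream: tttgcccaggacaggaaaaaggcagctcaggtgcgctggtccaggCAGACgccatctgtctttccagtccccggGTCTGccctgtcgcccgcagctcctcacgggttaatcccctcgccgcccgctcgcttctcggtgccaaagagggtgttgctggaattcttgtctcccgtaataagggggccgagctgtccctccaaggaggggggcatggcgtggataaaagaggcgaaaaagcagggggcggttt
CAGAC occurred 2 times, counted over both strands with overlapping hits allowed. Of 32851 windows of the same length, 42.2% held it at least once and 11.7% at least as often as Ltbp2. The AP-1 motif TGANTCA, searched on both strands, was not found in these letters and was in 6.75% of windows.

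Tgfb3, the ligand best known from palate and mammary development, read 0.45, -0.03, 1.35, -0.29 and 0.41 in p53LKO HCC. In ICC it read 1.74, 2.06, 2.89, 1.11 and 2.27, so 4 of 5 ICC lay above every HCC. The mean was 3.11-fold higher (log2 difference 1.63, SE 0.37, limma adjusted p = 0.00507), and the call held in 27 of 27 alternatives, with differences of 1.42 to 2.001. The difference was 1.53 on slide 1, 1.59 on slide 2 and 1.80 within row 2.

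Tgfbi and Ltbp1 lay at the edge of the fold limit. Tgfbi read 4.01, 4.31, 4.56, 3.49 and 3.42 in p53LKO HCC and 4.29, 4.90, 5.16, 5.23 and 5.04 in ICC, a 1.96-fold difference (limma adjusted p = 0.0141). Ltbp1 read -0.84, -1.02, -0.67, -1.71 and -1.99 in HCC and -0.67, -0.50, 0.28, -0.21 and -0.16 in ICC, a 1.99-fold difference (limma adjusted p = 0.0167). The Ltbp1 ranges met: the highest HCC was -0.669 and the lowest ICC -0.667. Both genes passed the fold limit without the HCC of mouse 5283 (log2 differences 1.06 for Tgfbi and 1.05 for Ltbp1), without the HCC of mouse 3731 (1.12 and 1.14) and without the ICC of mouse 3731 (1.13 and 1.10), which brought the called genes to 4. Ltbp1 alone passed it without the HCC of mouse 3976 (1.10) or the ICC of mouse 3733 (1.06). On slide 1, with 1 ICC and 2 HCC, the differences were 0.13 and 0.26, and on slide 2 they were 1.26 and 1.31. With the mouse as a block both lost the adjusted p limit, at 0.126 and 0.0745.

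A second Ltbp1 probe did not follow the first. The brighter probe lies at chr17:75790530-75790589 of mm9 and carries the RefSeq accession of the gene, while the dimmer lies at chr17:75446945-75447004, on the same strand, and carries the accession of a single cDNA. On 5 of 5 p53f/f HCC arrays, 4 of 5 p53LKO HCC arrays and 0 of 5 ICC arrays the dimmer probe was well above background, and the p53LKO HCC array that failed was in row 2, as were all ICC arrays. Its p53f/f and p53LKO HCC means were -2.33 and -2.97, and those of the brighter probe -1.76 and -1.25. Against p53f/f HCC the mean of the dimmer probe was at least 1.31-fold lower in ICC (limma adjusted p = 0.00518 for the measured values). The bound sets the ICC arrays at the lowest signal that counted as well above background, or at the probe's own signal if higher. The row of the slide separates these groups, so its part in this difference cannot be told apart. Averaged over both probes, Ltbp1 differed between ICC and p53f/f HCC by 0.26 (limma adjusted p = 0.37), against 1.503 by the brighter probe.

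The receptors were not called between the tumor kinds. Tgfbr2 read 3.26 to 3.9995 in p53LKO HCC and 3.36 to 4.52 in ICC, and the difference of 0.05 had an interval of -0.47 to 0.57, so a change of more than 1.48-fold upward lay outside it. Its dimmer probe differed by -0.08. Tgfbr1 differed by 0.26, with an interval of -0.30 to 0.83, and its dimmer probe by 0.22. Tgfbr3 read -1.30 to 0.33 in ICC, and its difference of 0.62 had an interval of -0.13 to 1.37.

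Among the other ligands and binding proteins, Tgfb1 read -0.30, 0.28, 1.08, 0.13 and 1.24 in ICC and differed by 0.71 from p53LKO HCC (limma adjusted p = 0.109). Ltbp3 read 2.04 to 3.53 in ICC, inside its HCC range, and differed by 0.54 (interval -1.01 to 2.08), or by 0.12 in its dimmer probe. Tgfb2 differed by 0.31 with an interval of -0.79 to 1.41, and within row 2 by -0.71. The dimmer Tgfb2 probe differed by 0.88 (limma adjusted p = 0.124). In ICC the brighter Tgfb2 probe kept the narrow range of 1.07 to 1.96, against -0.34 to 3.01 in p53LKO HCC.

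**Figure D2:**
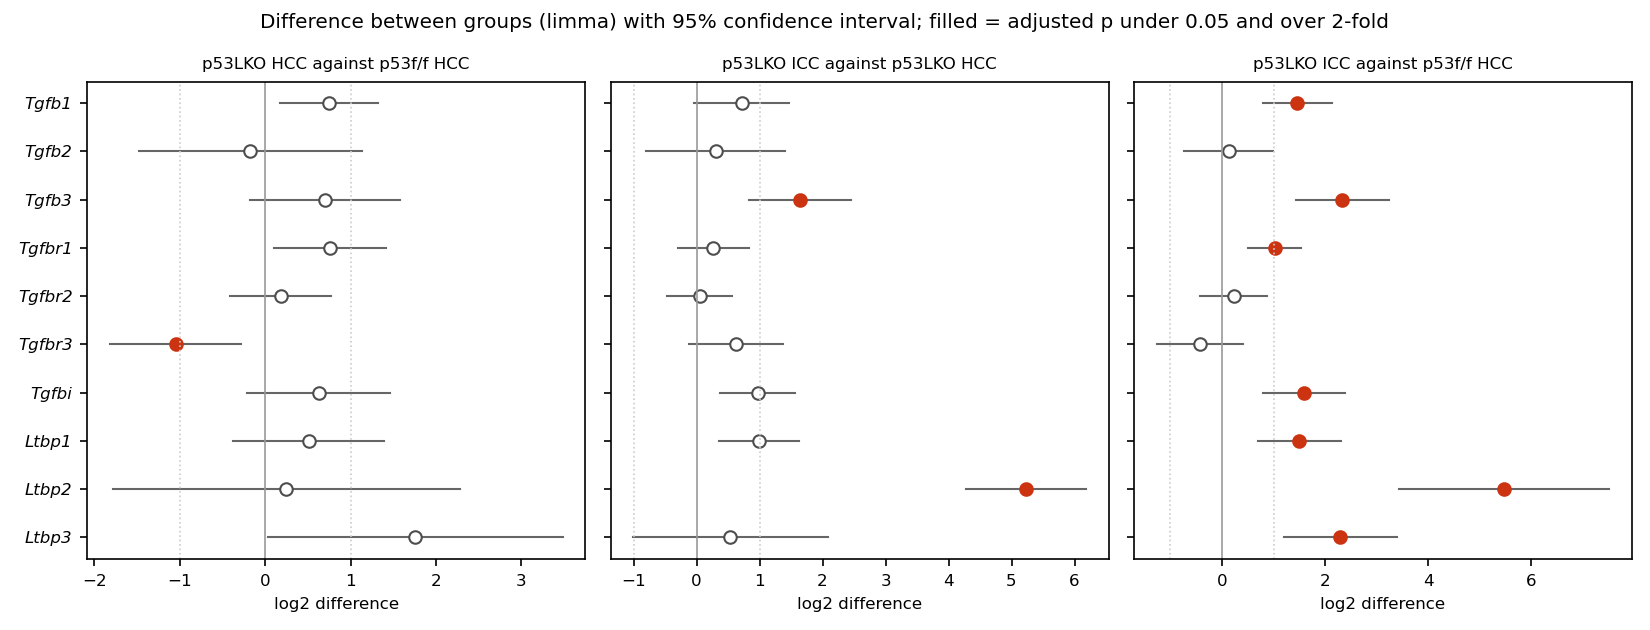
Difference between groups on the log2 scale (x axis) for the 10 genes (y axis) in the 3 comparisons, with 95% confidence intervals from limma; filled points were called and dotted lines mark the 2-fold limit. Tgfbr3 is filled in the first panel, Tgfb3 and Ltbp2 in the second, and 7 genes in the third.

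In the 4 mice that gave both tumors, ICC read higher than HCC for Ltbp2 in 4 of 4, by 3.27 to 6.10, and for Tgfb3 in 4 of 4, by 0.39 to 2.44. The smallest of the Tgfb3 differences was in mouse 3731. Tgfbr1 was higher in ICC in 4 of 4 mice, by 0.19 to 1.08, and Ltbp1 by 0.0016 to 1.21. Tgfb1 was higher in 3 of 4, between -0.61 and 1.61, as were Tgfbr2, Tgfbr3, Tgfbi and Ltbp3. Ltbp3 ranged from -1.59 to 3.07, and Tgfb2 was higher in 2 of 4.

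**Figure D3:**
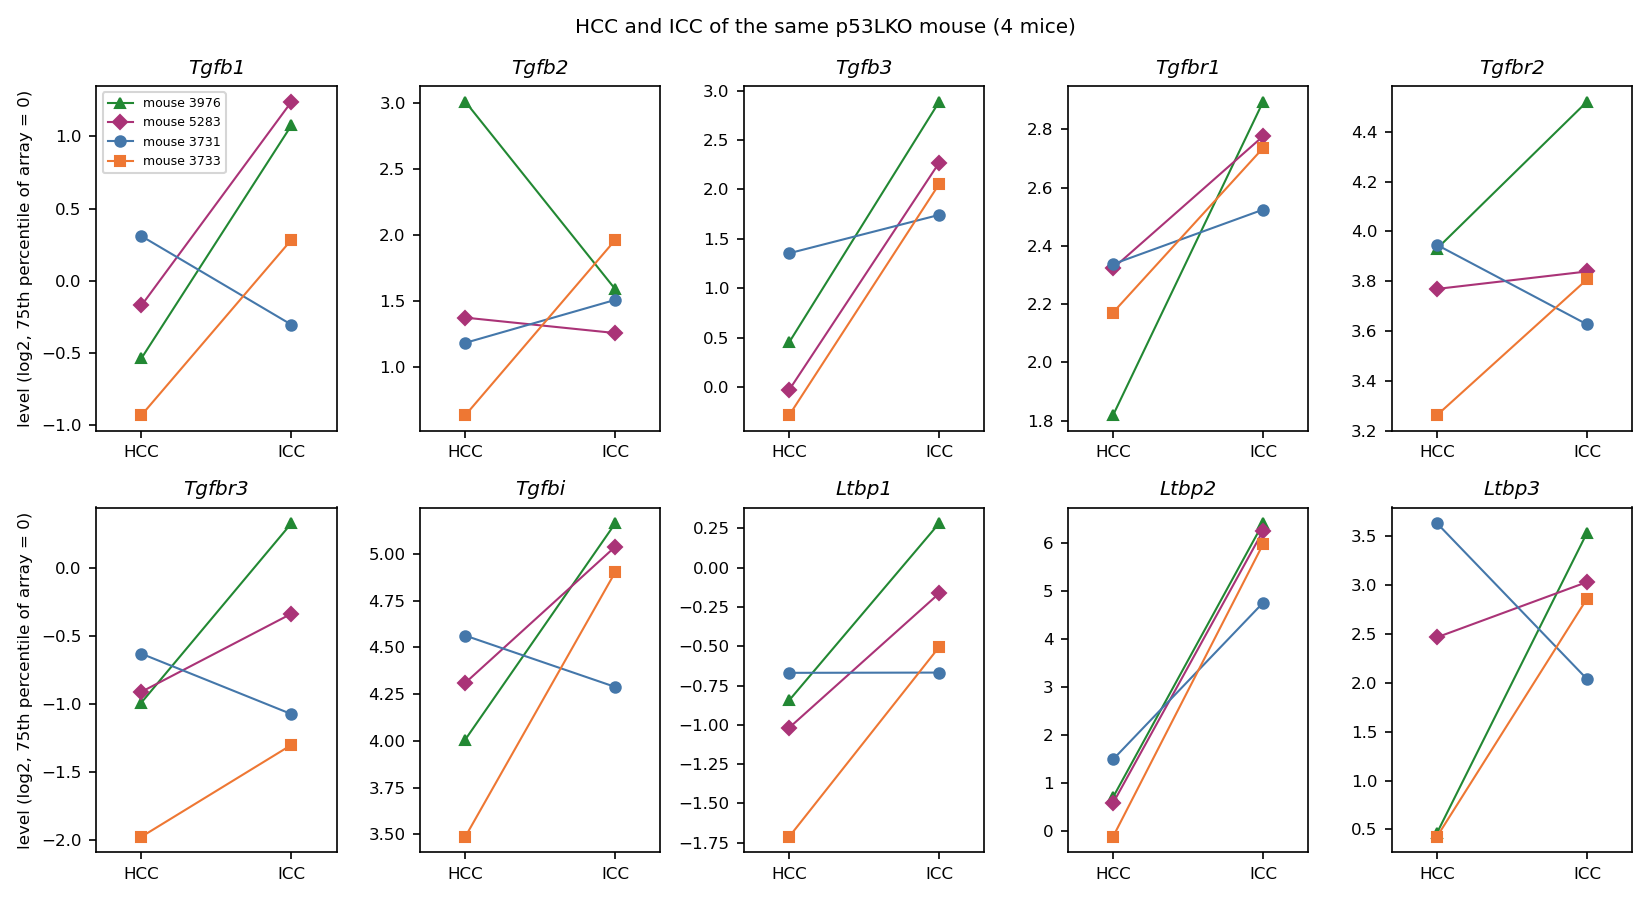
Level (y axis, log2 relative to the 75th percentile of the array) in the HCC and the ICC of the same p53LKO mouse (x axis), with 1 line for each of 4 mice and 1 panel for each of 10 genes, each on its own scale. The 4 lines rise for Ltbp2 by 3.27 to 6.10 and for Tgfb3 by 0.39 to 2.44, and cross for Tgfb2.

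ICC from p53LKO mice was also set against HCC from p53f/f mice, where genotype and tumor kind cannot be told apart, nor can the row of the slide. The p53f/f HCC and ICC arrays of this comparison also served in the others. Of the 10 genes, 7 were called higher and 0 lower: Tgfb1, Tgfb3, Tgfbr1, Tgfbi, Ltbp1, Ltbp2 and Ltbp3. Over all 17777 genes tested, 10.8% were called higher and 11.9% lower. The median difference of the 10 genes was 1.48, and that of all tested genes -0.18. Scaled to the spike-in probes, which moved the latter to 0.56, the calls over all genes went from 1925 higher and 2121 lower to 4685 and 552.

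Ltbp2 was 44.5-fold higher in ICC (log2 difference 5.48, SE 0.93, limma adjusted p = 0.00175) and Tgfb3 5.04-fold higher (2.33, SE 0.41, limma adjusted p = 0.00207). Ltbp3 was 4.92-fold higher (2.30, SE 0.50), Tgfbi 3.02-fold (1.59, SE 0.36), Ltbp1 2.83-fold (1.503, SE 0.37), Tgfb1 2.75-fold (1.46, SE 0.30) and Tgfbr1 2.03-fold (1.02, SE 0.23), with limma adjusted p of 0.00489 to 0.0103. For 6 of these 7 genes every ICC lay above every p53f/f HCC, and for Tgfbi 4 of 5 did. The share of all tested genes whose groups separated in this way was not determined. The separation is therefore not shown to be particular to these genes. The second probes of Tgfbr1 and Ltbp3 were called higher too, by 1.18 and 1.08, while that of Ltbp1 went the other way.

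The Tgfbr1 call depended on single tumors. Its log2 difference fell below the fold limit without p53f/f mouse 3681 (0.84) and without the ICC of mouse 3733 (0.999), 3976 (0.96) or 5283 (0.99). With the slide as a block, 2 of the 7 calls held, Tgfb3 and Ltbp2, where slide 1 carried 1 ICC and slide 2 carried 1 p53f/f HCC. The calls over all genes went from 1925 higher and 2121 lower to 1214 and 1015 with this block. Ltbp3 (1.85), Tgfb1 (1.17) and Ltbp1 (1.13) stayed above the fold limit there, with limma adjusted p of 0.0745, 0.0663 and 0.117, and Tgfbi (0.98) and Tgfbr1 (0.78) did not. The differences of the remaining receptors and Tgfb2 were 0.23 for Tgfbr2 (interval -0.42 to 0.88), -0.43 for Tgfbr3 (interval -1.27 to 0.41) and 0.13 for Tgfb2 (interval -0.73 to 0.99).

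The order of the 3 groups differed between genes. Tgfb1, Tgfb3, Tgfbr1, Tgfbr2, Tgfbi, Ltbp1, Ltbp2 and Ltbp3 had their lowest mean in p53f/f HCC, an intermediate mean in p53LKO HCC and the highest in ICC, at -0.97 ± 0.31, -0.23 ± 0.51 and 0.49 ± 0.65 for Tgfb1 (SD, n = 5) and at -0.32 ± 0.77, 0.38 ± 0.63 and 2.01 ± 0.66 for Tgfb3 (SD, n = 5). For Tgfb1, Tgfbr1, Tgfbr2, Tgfbi, Ltbp1 and Ltbp3 neither neighboring pair in this order was called. Ltbp2 had HCC means of 0.18 ± 2.27 and 0.43 ± 0.77 and an ICC mean of 5.66 ± 0.77 (SD, n = 5). Tgfb2 and Tgfbr3 had their lowest mean in p53LKO HCC.

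Across the 15 arrays the members that moved most closely together were Tgfbi and Ltbp1, at Pearson r = 0.92, and 0.81 after the mean of each group was removed. Tgfb1 and Tgfb3 had r = 0.85 (0.62 within groups), Tgfb3 and Tgfbi 0.86 (0.60), and Tgfb3 and Ltbp2 0.84 (0.44). Tgfb2 and Ltbp3 went in opposite directions, at -0.43 overall and -0.61 within groups. These correlations share arrays and scaling and are given as descriptions. Among 11609 other genes measured on every array, Tgfb1 was most like Mxra7 (r = 0.95) and C1qtnf5 (0.94). Tgfb3 was most like Antxr1, a collagen-binding anthrax toxin receptor (0.97), and Ddah2 (0.97), and Tgfb2 most like Morn2 (0.85) and Zfp871 (0.76). Ltbp2 was most like Ppp1r12a, a myosin phosphatase subunit (0.96), and the fibrillar collagen gene Col3a1 (0.96). Tgfbi was most like Ctss, a lysosomal protease (0.96), and C1qc, a complement subunit (0.95), both made by macrophages, and Ltbp1 most like the transcription factor gene Foxf1 (0.94).

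The lists of pathway genes are to be read beside all tested genes. In ICC against p53LKO HCC, 13.2% of all genes were called higher and 15.2% lower. In ICC against p53f/f HCC the shares were 10.8% and 11.9%, and between the HCC groups 5.19% and 10.8%. The genes that tether or activate latent TGF-beta include fibrillins, microfibril proteins, integrins and proteases. Of the 22 tested of 24, 10 were called higher and 1 lower in ICC against p53LKO HCC. The list median was 0.74, beside -0.17 for all tested genes. Mfap5, a microfibril protein, was not well above background on any p53LKO HCC array and was at least 81.3-fold higher in ICC (limma adjusted p = 7.36e-06). Thbs1, a matrix protein that activates the latent complex, was 3.88 higher on the log2 scale (limma adjusted p = 6.94e-05), and Plg, the plasminogen made by hepatocytes, 2.18 lower (0.00995). Against p53f/f HCC, 11 of 22 were higher and 1 lower, with the gelatinase Mmp2 5.65 higher. Between the HCC groups, 3 of 21 were higher and 2 lower. There the protease Plat was 3.02 and Mmp2 2.74 higher in p53LKO HCC, Mfap4 was 1.98 lower, and Mfap5 was at least 1.48-fold lower. Mfap5 and Mfap4 were thus called lower in p53LKO HCC than in p53f/f HCC, a direction unlike that of Plat and Mmp2 in the same list.

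Of the co-receptors and extracellular inhibitors, 0 of 12 tested were called between the HCC groups, beside the member Tgfbr3. Between ICC and p53LKO HCC, 4 of 12 were higher in ICC and 1 lower. The rises were led by Fstl1, a secreted follistatin relative (2.75, limma adjusted p = 0.000313), and Dcn, the proteoglycan decorin that binds TGF-beta (2.30, limma adjusted p = 0.000121), and Tgfbr3l fell by 1.09. Against p53f/f HCC, 5 of 12 were higher and 1, the BMP antagonist Nog, was 1.15 lower.

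Of the SMAD proteins and their regulators all 25 were tested, and 0 were called between the HCC groups. Between ICC and p53LKO HCC, 2 were higher in ICC and 2 lower, beside 13.2% and 15.2% of all tested genes. The list median was -0.15, and that of all tested genes -0.17. Pmepa1, a feedback inhibitor that binds SMAD2 and SMAD3, was 3.09 higher (limma adjusted p = 0.000383), and Skil, a SMAD co-repressor, was 1.29 higher. Zfyve9, the anchor that brings SMAD2 to the receptor, was 1.36 lower, and Nedd4l, a ubiquitin ligase, 1.32 lower. Against p53f/f HCC, 5 of 25 were higher and 0 lower, again led by Pmepa1 (3.72) and Skil (1.40).

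Of the genes that TGF-beta is known to induce or repress, 28 were tested between the HCC groups, where 3 were higher and 0 lower in p53LKO HCC, led by Timp1, an inhibitor of matrix proteases (3.50, limma adjusted p = 0.000307), and Loxl2, a collagen cross-linking enzyme (2.07). In ICC against p53LKO HCC, 12 of 30 were higher and 1 lower, with a median of 0.77, beside -0.17 for all tested genes. By the measured values the matrix cross-linker Lox rose by 4.64 and tenascin C (Tnc) by 3.77, but only 1 of 5 p53LKO HCC arrays had either well above background. Cdkn1a, the cell cycle inhibitor p21, which is also a p53 target, was 1.79 lower in ICC than in p53LKO HCC and 1.65 lower than in p53f/f HCC. Against p53f/f HCC, 13 of 30 were higher and 1 lower, with Timp1 5.84 higher. Pmepa1, Skil, Smad7 and Tgfb1i1 are also in the list of SMAD regulators, Itgb6 in that of activation and Bgn in that of co-receptors and inhibitors.

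The activins, myostatin and growth differentiation factors (GDF) are relatives of the TGF-beta ligands. In ICC against p53LKO HCC, 1 of 15 tested was higher and 4 lower, with a median of -0.28, beside -0.17 for all tested genes. Gdf15, a stress-induced cytokine, was 2.54 lower. Gdf1 was 1.59 lower by its measured values, with 1 of 5 ICC arrays well above background, and the nodal antagonist Lefty2 was 2.15 higher. Between the HCC groups, 1 of 17 was higher and 2 lower: Gdf10 by 2.28, Lefty2 by -2.73, and Gdf11, not well above background on any p53LKO HCC array, at least 1.36-fold lower. Against p53f/f HCC, 1 of 17 was higher in ICC, Gdf10 by 2.71, and 3 were lower, led by Gdf15 (-1.98) and Nodal (-1.26). In p53f/f HCC only 2 of 5 arrays had Gdf10 well above background. Between the HCC groups its call held in 16 of 27 alternatives and that of Gdf11 in 12 of 24.

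**Figure D4:**
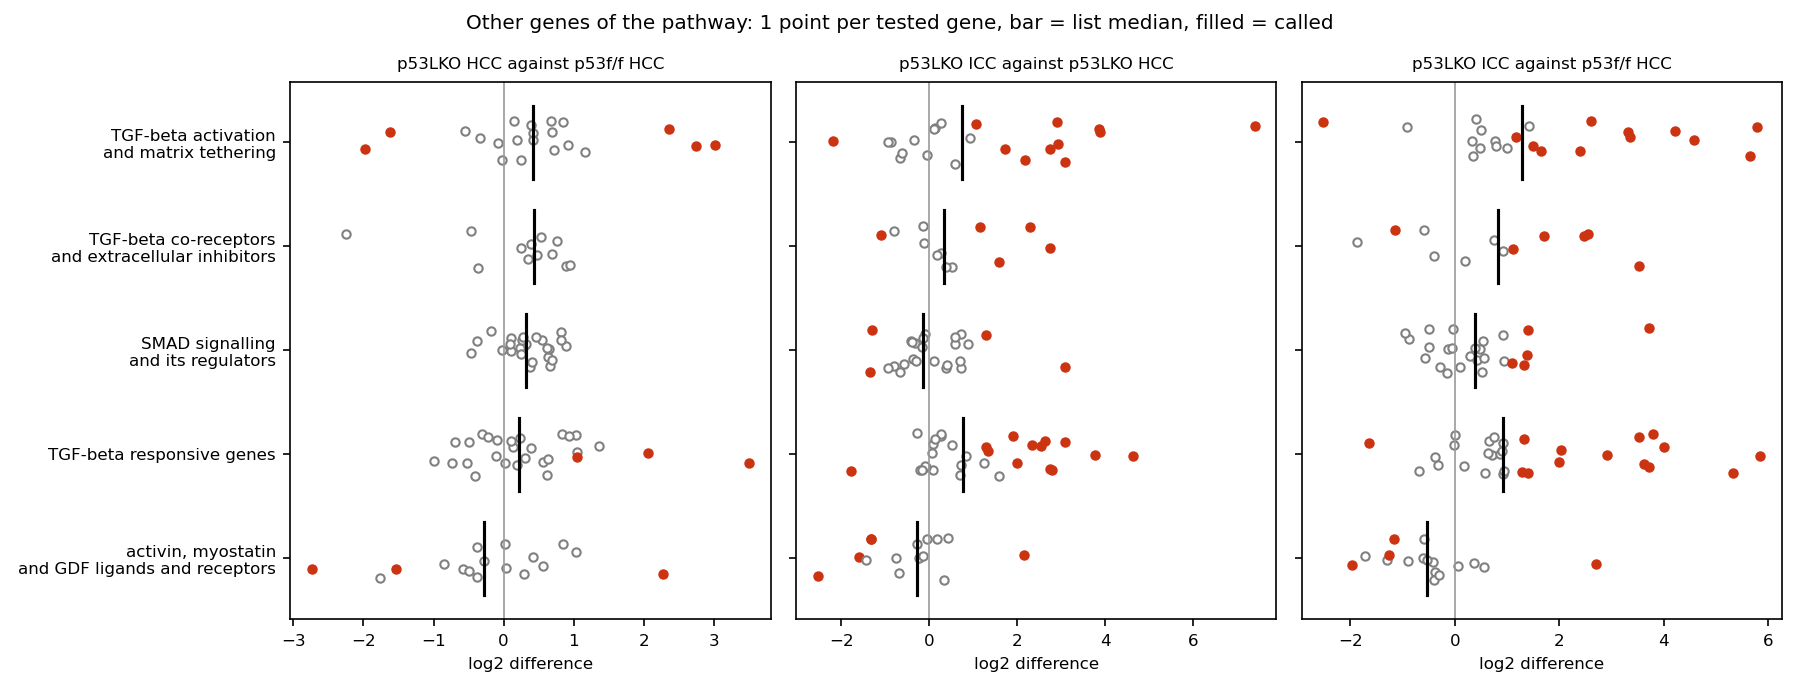
Log2 difference (x axis) of every tested gene of 5 lists of pathway genes outside the 10 (y axis) in the 3 comparisons; filled points were called, the black bar is the list median, and vertical position within a list has no meaning. In ICC against p53LKO HCC, 10 genes of the activation list and 12 of the responsive list are filled above 0.

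Markers of other cells moved with these results. The summed level of the 15 stellate cell and fibroblast markers was 4.32 to 6.27 in p53f/f HCC, 5.81 to 7.78 in p53LKO HCC and 8.39 to 9.36 in ICC, and 10 of the 15 were well above background on every ICC array. Of these markers, 7 of 14 tested were called higher and 1 lower in ICC against p53LKO HCC, 9 of 15 higher and 0 lower in ICC against p53f/f HCC, and 3 of 15 higher and 1 lower between the HCC groups, with median differences of 1.24, 2.16 and 0.83. The medians of all tested genes in these comparisons were -0.17, -0.18 and 0.06. The part of the stellate cell and fibroblast markers in the differences of Ltbp2, Tgfb3 and the lists was not tested. This list shares Acta2, Col1a1, Col1a2 and Col3a1 with the TGF-beta responsive genes. Macrophage markers summed to 6.88 to 7.96 in p53f/f HCC, 6.80 to 7.43 in p53LKO HCC and 7.22 to 8.05 in ICC, with Cd163 not well above background on any array. Of the 11 tested, 2 were called higher and 0 lower in ICC against p53LKO HCC, and 4 higher and 0 lower against p53f/f HCC. Lyz2 averaged 0.87, 1.14 and 4.13 in the 3 groups and the bright Itgam 6.67, 4.59 and 6.15. Their part in the Tgfbi differences was not tested. Endothelial markers summed to 5.06 to 5.90, 4.85 to 5.56 and 3.99 to 5.32 in the same order. Of the 11 tested, 1 was called higher and 0 lower in ICC against p53LKO HCC, with a median difference of 0.0083. Against p53f/f HCC 0 were higher and 2 lower in ICC. The platelet and megakaryocyte markers, whose cells store Tgfb1, summed to 0.23 to 2.48, 2.23 to 3.76 and 2.49 to 3.50 in the order of the groups above. The sum followed Pf4, which averaged 1.02, 2.64 and 2.95, while Ppbp averaged -2.33, -1.74 and -2.60. Of these 5 markers 1 was called higher and 0 lower in p53LKO HCC than in p53f/f HCC, and Itga2b, Gp1bb and Gp9 were not well above background on any ICC array. Gp1bb nevertheless averaged -2.94 in ICC, beside -2.86 in p53f/f HCC, where 5 of 5 arrays had it above background. Their part in the Tgfb1 differences was not tested.

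A summed level follows its brightest genes, and for some lists it went against the count of genes. Neutrophil markers summed to 8.17 to 8.58 in p53f/f HCC, 7.06 to 7.48 in p53LKO HCC and 7.01 to 8.52 in ICC, yet 3 of 7 were called higher and 1 lower in p53LKO HCC against p53f/f HCC, with a median difference of 1.57. The p53f/f and p53LKO HCC means were 8.26 and 6.71 for the bright Csf3r and 0.69 and 2.53 for S100a8. Markers of T, B and NK cells summed to 4.48 to 9.30, 4.99 to 6.65 and 3.47 to 4.26, and in ICC against p53LKO HCC 3 of 9 were called higher and 1 lower, with a median difference of 0.64. Of that list Cd4 averaged 5.59 in p53LKO HCC and 2.84 in ICC, and Ms4a1 reached 9.25 in a p53f/f HCC. Pancreatic acinar markers summed to 2.53 to 4.32, 2.83 to 3.43 and 0.13 to 1.82.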

How the data were processed

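RNA of 15 tumors was hybridised to 1-color Agilent arrays and scanned as 1 series on 1 day. The authors deposited scanner files whose processed signal is an intensity, background-subtracted by Agilent Feature Extraction 10.7.3.1 per the file headers, and a table of log2 values. Set against the scanner files, the authors' log2 table equalled log2 of the processed intensity minus the 75th percentile, centered on the median of a probe over the 10 HCC or over the 10 p53LKO arrays, so it was used only between the HCC groups. Here, spots without an outlier mark were averaged per probe, 55681 non-control probes were shifted to the 75th percentile of each array, and those that at least 3 arrays of 1 group showed well above background were tested with limma 3.58.1 in R 4.3.3 on the 10 arrays compared. No probe was saturated. The number of arrays limits the precision. Probe positions are those of the array files (mm9). The named pathway genes were, per list and comparison, up to 2 called genes with the largest rise and 2 with the largest fall. The 10 genes and all lists were chosen with earlier results of these data known. The fit was tested on simulated data. The 4 mice with both tumors pair HCC and ICC by animal, and their deviations from the group means correlated at -0.14 to 0.07, against -0.26 to 0.28 for unpaired tumors. The p-values otherwise treat tumors as replicates.

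Alternatives covered the background correction, scaling, filter, test, slide, row, mouse and each tumor left out. Mouse 3717's tumors were also averaged.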

Additional observations from a re-analysis of the deposited data

Results flagged for a closer look

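Among 105 sets of 5 values, those of the 35 named genes in each of the 3 groups, 1 held a tumor far from the rest, where chance gives about 1 in 20. Zfyve9 read -2.42 in the p53f/f HCC of mouse 3715, while the other 4 read -1.40 to -1.13, and the probe was well above background on all 5 arrays. Zfyve9 was called in no comparison that used these arrays.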

How the results depend on the processing

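The calls of Ltbp2 and Tgfb3 in ICC against p53LKO HCC held in all 27 alternatives, while the number of called genes among the 10 moved in each comparison. Between the HCC groups it was 1, and it became 0 with normexp background correction, quantile normalization, no filter on dim probes or a filter of at least 1 array, the slide or the row as a block, the Mann-Whitney test, the methods' t-test, row 1 alone and the mean of mouse 3717's tumors, 5 with spike-in scaling and 2 with no limit on the fold. With no limit on the fold, 2457 of all tested genes were higher and 2807 lower there. Leaving out 1 tumor gave 0 to 1. In ICC against p53LKO HCC it was 2, and it became 5 and 4 with scaling to the 75th percentile and to the median of probes above background on all arrays, 4 with no limit on the fold, and 3 with quantile normalization (Tgfbi added, 1.47) or the slide as a block (Ltbp1 added, 1.02); leaving out 1 tumor gave 2 to 4. With the mouse as a replicate block it was 2 (Ltbp2 5.19, limma adjusted p = 0.00457; Tgfb3 1.87, limma adjusted p = 0.0225), and the pairing by mouse changed no call of the 10 genes. In row 2 alone, an alternative chosen after seeing the data, it was 2. In ICC against p53f/f HCC it was 7, and 2 with the slide as a block, 5 with normexp (without Tgfbr1, 0.97, and Ltbp1, 0.88), 6 with the mean over probes (without Ltbp1, 0.26) and 6 with the Mann-Whitney test (without Tgfbi, adjusted p = 0.0507); leaving out 1 tumor gave 6 to 7, and the row could not be fitted as a block, since it separates these groups.

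Some small differences changed sign, none of them called. Between the HCC groups, Ltbp2 became -0.0284 with normexp, -0.0088 with the 75th percentile of probes above background and -0.0126 with the mean of mouse 3717's tumors, and Tgfbr2 -0.0429 with quantile normalization and -0.0749 with that percentile. Tgfb2 became 0.55 with spike-in scaling and 0.25 with the slide as a block, and Ltbp1 -0.07 with the mean over probes. In ICC against p53LKO HCC, Tgfbr2 became -0.014 with normexp, -0.0138 with the mean over probes and -0.0185 with the row as a block or in row 2 alone, and Tgfb2 -0.71 in the latter settings. In ICC against p53f/f HCC, Tgfbr3 became 0.31 with spike-in scaling. With 1 tumor left out, Ltbp2 ran from -0.52 to 0.72 and Tgfb2 from -0.63 to 0.20 between the HCC groups, Tgfbr2 from -0.12 to 0.17 and Tgfb2 from -0.0719 to 0.77 in ICC against p53LKO HCC, and Tgfb2 from -0.11 to 0.38 in ICC against p53f/f HCC. The cause of these changes was not tested. For the other 25 genes named, 965 of 1016 values kept their direction and their side of the limits, 51 fell short of them and 0 changed sign. Dim probes set the limit of detection, at 37.0% of probes above background on the array with the fewest.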
